A study of Mus musculus with 2 samples.

Results

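The genes described here are Mir467c, Mir467d, Mir467e, Mir669c, Mir669l and Mir669o, 6 microRNA (miRNA) genes that lie in an intron of Sfmbt2 on mouse chromosome 2. They are 6 of 119 annotated miRNA genes within Sfmbt2 and of 2202 in the deposited tables. They were chosen by their measured reads in these tables, as the genes of the cluster with enough reads to be measured, so their levels are given as a description. Tests were made only of the differences between the libraries. Small RNA had been sequenced from adrenal glands of adult female mice of the strain 5xFAD/CAST, 8 to 10 months old, as 2 libraries of 1 group, replicate 1 and replicate 2. 5xFAD mice model Alzheimer's disease through transgenes under a neuronal promoter. CAST is a castaneus-derived inbred strain. The labels do not say which animals carried the transgenes, and both samples have a single donor identifier in common. The p-values then measure only how these libraries differ, which may be technical. With 1 group there was no contrast between conditions.

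Sfmbt2 encodes a protein of the Polycomb group, which keeps genes repressed through chromatin. In mice it is imprinted and expressed from the paternal allele in extraembryonic tissue, and its large intron holds a rodent-specific array of miRNA genes that arose by repeated duplication. The array belongs to the miR-297, miR-466, miR-467 and miR-669 families and is best known from placenta and embryonic stem cells. A miRNA gene is transcribed into a hairpin, from which a short mature strand is cut. Bases 2 to 8 of the mature strand, the seed, pair with target messenger RNAs.

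In the build mm10, all 119 genes lay on the strand of Sfmbt2 (ENSMUSG00000061186.15) within a single intron at 10461473 to 10523944, which is intron 10 of the transcript Sfmbt2-201. From the first gene to the last they spanned 53.0 kb, with a median of 294 bases from one start to the next, and 71 had Mir names and 48 Gm names. Mir669l (ENSMUSG00000076959.1) lay at 10468971 to 10469068 and Mir467c (ENSMUSG00000077049.2) at 10473931 to 10474027, both near the start of the array. Mir467e (ENSMUSG00000076948.2) lay at 10505721 to 10505807, Mir467d (ENSMUSG00000077021.2) at 10507630 to 10507714, Mir669c (ENSMUSG00000076118.1) at 10509296 to 10509404 and Mir669o (ENSMUSG00000077086.1) at 10514300 to 10514395. These 4 were near its end, so the 6 genes flanked the middle of the array.

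Relatives of the same families show the kind of sequence the 6 hairpins carry. RefSeq (GRCm38.p6) gave 8 mature sequences of these families, all from genes on other chromosomes, and matched 0 of the 6 genes. The 4 of the miR-467 and miR-669 families are printed because their placement on the 6 hairpins shows which stretches the genes share, with the seed in capitals.
miR-467h: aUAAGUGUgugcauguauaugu
miR-467f: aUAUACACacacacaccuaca
miR-467g: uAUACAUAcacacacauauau
miR-669n: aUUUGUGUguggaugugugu
They come from chromosome 9 (115381898 to 115381919, plus strand), chromosome 11 (69635419 to 69635439, minus strand), chromosome 5 (34732872 to 34732892, minus strand) and chromosome 3 (115979905 to 115979924, plus strand), in the order printed. The hairpins share a repeat-like make-up: the dinucleotides TG, GT, CA and AC made up 45.8 to 59.0% of the dinucleotides of the 6, with a median of 50% in the intron's miRNA genes and 27.0% in all 2202.

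The first of them, miR-467h, fitted the 5′ side of the miR-467 hairpins. Positions are counted from 1 at the first base of the mature sequence, whose base is written first. Mir467c differed from it at 1 position, U8C, over bases 10 to 31 of its hairpin, and Mir467e at 1 position, U10A, over bases 11 to 32. Mir467d differed at 3 positions, U8C, U10C and U22C, over bases 10 to 31. As U8C falls within the seed, only Mir467e of the 6 genes held the seed of miR-467h, UAAGUGU, which was found in 1 of the 119 hairpins of the intron (0.840%) and in 0.636% of all 2202 hairpins.

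The 3′ side of these hairpins fitted miR-467f and miR-467g. Against miR-467f, Mir467d differed at 1 position (C8U, bases 47 to 67), and Mir467c and Mir467e each at 2 (C8U and C20U). As C8U falls within the seed, none of these 3 held the seed of miR-467f, UAUACAC, at that place. Searched over whole hairpins, it was in 3 of the 6, namely Mir669l, Mir467c and Mir467e. It was in 22.7% of the hairpins of the intron and in 5.13% of all hairpins. The seed of miR-467g, AUACAUA, was in 5 of the 6, in 65.5% and in 6.49%, and against the whole of miR-467g Mir669l differed only at A14C, Mir467e only at A16C and Mir467c at A16C and U21C. For miR-669n, the hairpin of Mir669c differed at 1 position (U2G, bases 26 to 45), and the seed, UUUGUGU, was in 0 of the 6, in 8.40% of the hairpins of the intron and in 2.59% of all. Seeds were searched on the hairpin strand, the motifs overlap, and a match is no evidence of a mature product.

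The tables set multimapping reads apart from the genes, at 31.6% and 33.6% of the reads of replicates 1 and 2. How many of them came from the array was not tested. Each hairpin was cut into overlapping windows of 20 bases, and a window was called unique when no other annotated miRNA gene held it on either strand. All 6 genes shared at least 1 window with another gene, as did 117 of the 119 genes of the intron (98.3%), against 51.5% of all 2202 genes. The window search covered annotated miRNA genes, and 30 of the 458 windows of the 6 genes were also found in another GENCODE transcript. The rest of the genome was not searched. All hairpin sequences are those of the mm10 annotation, and whether the array differs in the CAST strain was not tested.

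**Figure D1:**
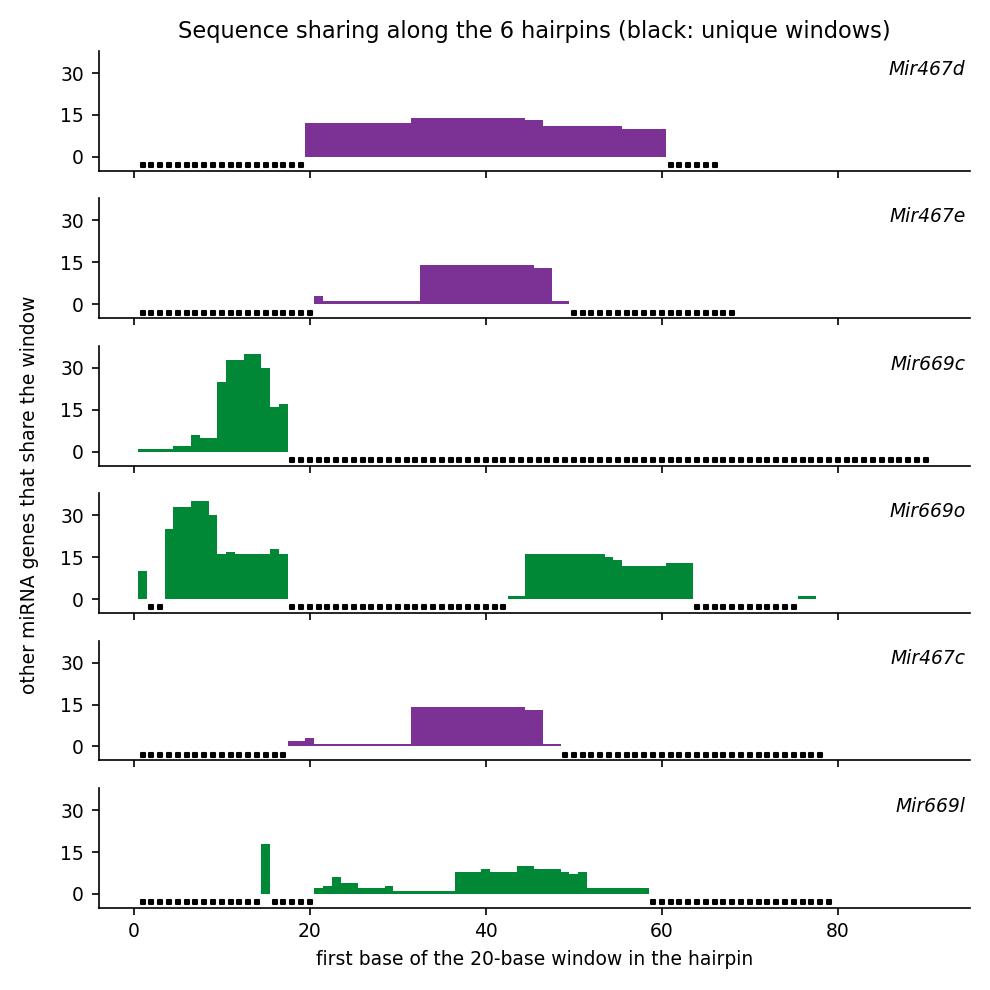
For each of the 6 hairpins, bars give the number of other miRNA genes (vertical axis) that hold the 20-base window starting at a given base (horizontal axis), and black marks show unique windows. In the miR-467 hairpins (purple) unique windows lie at both ends and the middle is shared with up to 14 genes, whereas in Mir669c (green) they run from base 18 to the end.

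The miR-467 genes had unique sequence at both ends of the hairpin and a shared middle. In Mir467d, bases 1 to 38 and 61 to 85 held unique windows and the windows between them were shared with up to 14 other genes, as the plot of sequence sharing along the hairpins shows. Of its 66 windows, 37.9% were unique, against 57.4% in Mir467e and 60.3% in Mir467c. All windows at the miR-467h place on the 5′ side were unique in these 3 hairpins. At the miR-467f place on the 3′ side none was, with 11 other genes sharing those of Mir467d and 1 other gene those of Mir467c and of Mir467e.

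Mir467d also had the longest shared stretch, 60 bases, held by each of 10 other genes of the intron. Among the 3 miR-467 members, pairwise identity ran from 83.5 to 92.0%, highest between Mir467d and Mir467e. The 3 miR-669 members were less alike, at 67.9 to 81.8%, and pairs across the families stood at 63.1 to 73.5%. The identity is of matching positions over a global alignment of the hairpins.

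The miR-669 genes shared other parts of the hairpin. Mir669c shared only bases 1 to 36 with other miRNA genes, up to 35 of them at a window, and 81.1% of its windows were unique. With all other GENCODE transcripts searched too, an alternative added after the data were seen, 70% of its windows were unique. Mir669o, with 50.6% unique windows, shared stretches at its start and in its second part, with 56 genes in all. Mir669l, also with 50.6%, shared bases 21 to 77 and a single window before that, with 35 genes in all, among them Mir467c and Mir467e. Here 57 bases were identical in Mir669d, a gene without a read.

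**Figure D2:**
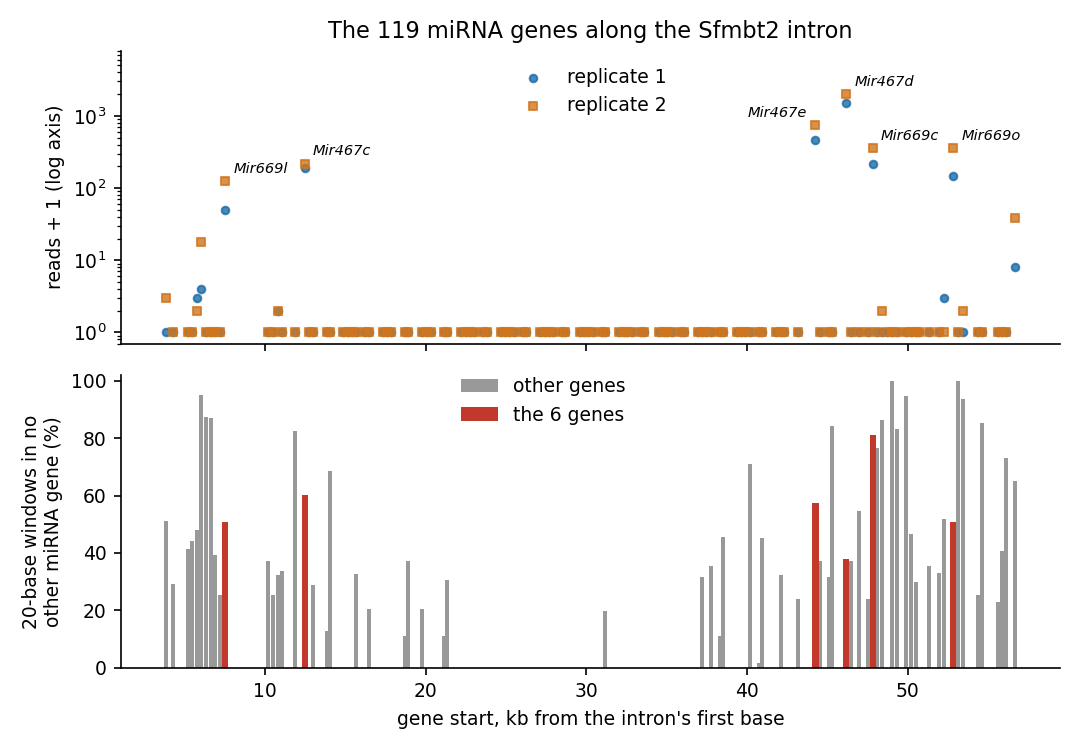
The 119 miRNA genes are placed by their start in kb from the first base of the intron. The upper panel gives reads plus 1 in each library on a log axis. The lower panel gives the percent of unique 20-base windows (red, the 6 genes). The middle of the array has no counted reads and few unique windows.

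No gene among the 54 without a unique window had a counted read. As multimapping reads are not counted, such a gene could hardly gain one, so these counts do not measure its level. Of the 31 genes with some unique windows but a lower percentage than any of the 6, 1 had reads, 1 in each library. Of the 34 genes from that percentage up, 13 had reads, 6 of them at least 10 in each library, and 21 had none. Those 6 are the members, whose lowest value set the class, so the count repeats how they were chosen. The block of 72 genes between Mir467c and Mir467e, 31.8 kb long, held 0 counted reads in either library, and 52 of them had no unique window. Among the 47 genes outside it, 2 had none.

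By family, the 3 miR-467 members held all counted reads of the 14 miR-467 genes of the intron, 10 of which had no unique window. Of 29 miR-669 genes 6 had reads, 419 in replicate 1 and 897 in replicate 2, nearly all on the 3 members. The 23 miR-466 genes together had 2 reads and 1 read, and the 5 miR-297 genes 1 read in each library. The 48 Gm genes had 0 and 3 reads. The 10 genes of these families on other chromosomes had none.

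The 5 genes of the intron with the highest counted level after the 6 were Mir669h, Mir669e, Mir669f, Mir466n and Mir297a-2. The 54 genes without a unique window cannot be placed in this order, since multimapping reads are not counted. Mir669h had 7 reads in replicate 1 and 37 in replicate 2, and Mir669e had 3 and 17. They lie just outside the members, of which Mir669l is the lowest with 49 and 124 reads. The other 3 had at most 2 reads in a library. Mir669h and Mir669e reached 10 reads in the deeper library alone.

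The depth on miRNA genes, in the column that counts 1 strand, was 3635851 reads in replicate 1 and 6924829 in replicate 2, a ratio of 1.90. Levels are given as CPM, reads per 1000000 of these, without division by hairpin length since a read covers a mature strand. For the tissue, the endocrine list led by Mir375 summed to 50709 and 48363 CPM and the corticotropin-responsive list led by Mir21a to 16980.1 and 32914 CPM, with all 8 genes at 10 reads or more in each library. The embryonic stem cell and trophoblast list, led by Mir294, stood at 55.0 and 39.0 CPM, with 2 of 5 matched genes at 10 reads in each library and Mir290a at 0. That list leaves out Mir292 and the miR-302 genes, which were looked up after the data were seen. Mir292 stood at 18.7 and 15.9 CPM and the 4 miR-302 genes, all with 10 reads or more in each library, together at 314 and 195 CPM. Of the lists for other cells, endothelium (Mir126a) had 56684 and 41532 CPM, leukocytes 1147 and 854 CPM, red cells 427 and 175 CPM, kidney 130 and 79.9 CPM and liver 78.1 and 108 CPM. Pancreas, striated muscle and neuron lists stayed under 3 CPM. In the muscle and neuron lists the genes at 0 (copies of Mir1a, Mir133a, Mir124a and Mir9) belong to miRNAs with several gene copies. Multimapping reads are not counted, so the muscle and neuron sums do not measure the level of these miRNAs. The same limit holds for gene copies in the other lists, such as Mir7-1 and Mir7-2. Whether the cells of these lists have a part in the levels of the 6 genes was not tested. In such tissue samples fewer cells of a type and less RNA per cell cannot be told apart.

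Mir467d had the highest counted level of the 6 genes. It had 1497 reads in replicate 1 and 1995 in replicate 2, or 412 and 288 CPM, with a mean of 349.9 ± 87.4 CPM (SD, n = 2). The exact Clopper-Pearson 95% intervals, which cover counting error only, were 391 to 433 CPM and 276 to 301 CPM, so the libraries did not overlap. Its mean ranked 122 of 2202 genes. Among the 356 genes with at least 10 reads in each library, 65.7% had a lower mean.

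Mir467e came next at 128 and 108 CPM (466 and 750 reads), with a mean of 118 ± 14.04 CPM and rank 169. Mir467d stood 3.21-fold above it in replicate 1 and 2.66-fold in replicate 2, and the ranges of the 2 genes did not overlap. These ratios are of uniquely assigned reads, and 37.9% of the windows of Mir467d and 57.4% of those of Mir467e were unique. What this does to the ratios was not tested. Mir467d and Mir467e were above the median of the 356 genes, 94.6 CPM, and the other 4 were below it.

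Mir669c had 58.9 and 51.8 CPM (214 and 359 reads), a mean of 55.4 ± 4.96 CPM, with the lowest coefficient of variation of the 6 over these 2 libraries (8.96%). Mir669o had 39.6 and 51.8 CPM (144 and 359 reads), a mean of 45.7 ± 8.65 CPM. Mir467c had 52.0 and 31.5 CPM (189 and 218 reads), a mean of 41.7 ± 14.5 CPM. These 3 neighbors in the order were not separated, since their ranges overlapped and the order of Mir669o and Mir467c turned between the libraries. Mir669c stood above Mir467c in both. Mir669l was lowest at 13.5 and 17.9 CPM (49 and 124 reads), a mean of 15.7 ± 3.13 CPM, below Mir467c in both libraries.

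**Figure D3:**
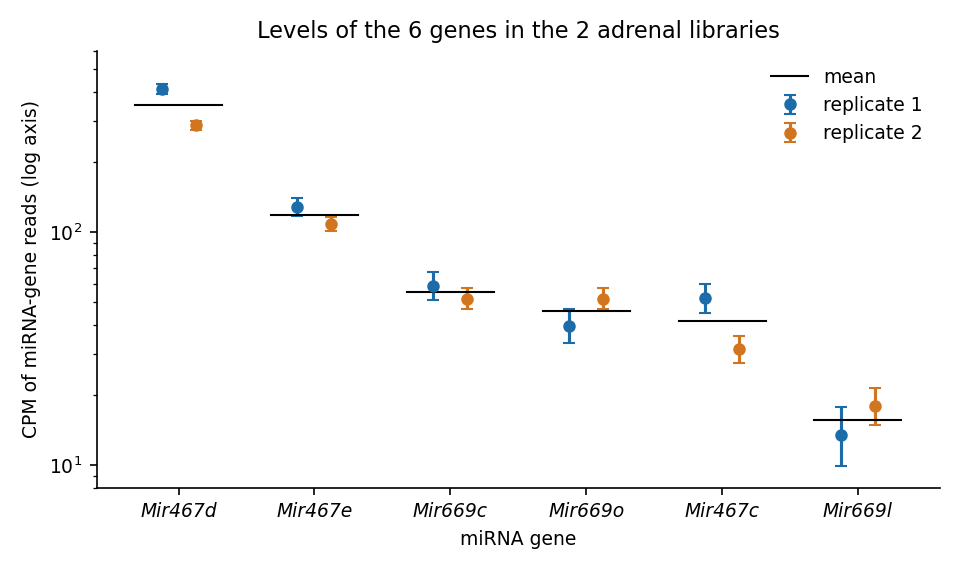
Points give the CPM of each of the 6 genes in replicate 1 (blue) and replicate 2 (orange) on a log axis, with exact 95% intervals for counting error, and black lines their mean. Mir467d sits at 412 and 288 CPM above the rest, and Mir669c, Mir669o and Mir467c lie between 31.5 and 58.9 CPM.

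All reads of the 6 genes came from the strand of Sfmbt2. The column of the other strand held 0 reads for each in both libraries, and the both-strand column gave the same counts as the strand column. Together the 6 genes took 0.0704% of miRNA-gene reads in replicate 1, with 95% bounds of 0.0677 and 0.0732% (exact, Clopper-Pearson), and 0.0549% in replicate 2, with bounds of 0.0532 and 0.0567%, a mean of 0.0627% ± 0.0109 (SD, n = 2). They held 99.4% and 98.4% of the reads counted in the intron. The remaining 113 genes had 15 and 60 reads.

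The gene nearest to Mir467d in level was Mir667, at 417 and 290 CPM, a distance of 0.019 in log2(CPM + 1) over the 2 libraries. Mir500 (452 and 246 CPM) and Mir338 (446 and 341 CPM) followed at 0.266 and 0.269. By mean CPM, Mir101a at 352 CPM ranked just above and Mir500 at 349 CPM just below. With 2 libraries this likeness is a description of levels.

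Between the libraries, Mir467c and Mir467d were lower and Mir669o was higher in replicate 2 by counting error under each scaling tried, and Mir467e was lower by miRNA-gene totals alone. The libraries were set against each other by Fisher's exact test, two-sided, with Benjamini-Hochberg adjustment over the 455 genes whose summed reads reached 10. By it 4 of the 6 genes were called, 3 lower and 1 higher in replicate 2. The background was high, as 52.5% of all tested genes were called, 35.6% lower and 16.9% higher, so a share of this size is not particular to these genes. The test covers counting error only, compares these 2 libraries and not conditions, and has no replicate check.

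Mir467c had a log2 ratio of -0.72 (exact 95% interval -1.01 to -0.43, adjusted p = 1.89e-06 by Fisher's exact test). Mir467d had a log2 ratio of -0.52 (-0.61 to -0.42, adjusted p = 2.58e-24) and Mir467e of -0.24 (-0.41 to -0.07, adjusted p = 0.00976). Mir669o had a log2 ratio of 0.39 (0.11 to 0.68, adjusted p = 0.0133 by Fisher's exact test). Mir669l had 0.40 (-0.08 to 0.92, adjusted p = 0.154) and Mir669c -0.18 (-0.43 to 0.07, adjusted p = 0.228), neither of which passed. Of the other genes of the intron with enough reads, Mir669h, at 1.39 (0.29 to 2.88, adjusted p = 0.0210), was higher in replicate 2, and Mir669e, at 1.39 (-0.22 to 3.99, adjusted p = 0.158), did not pass.

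**Figure D4:**
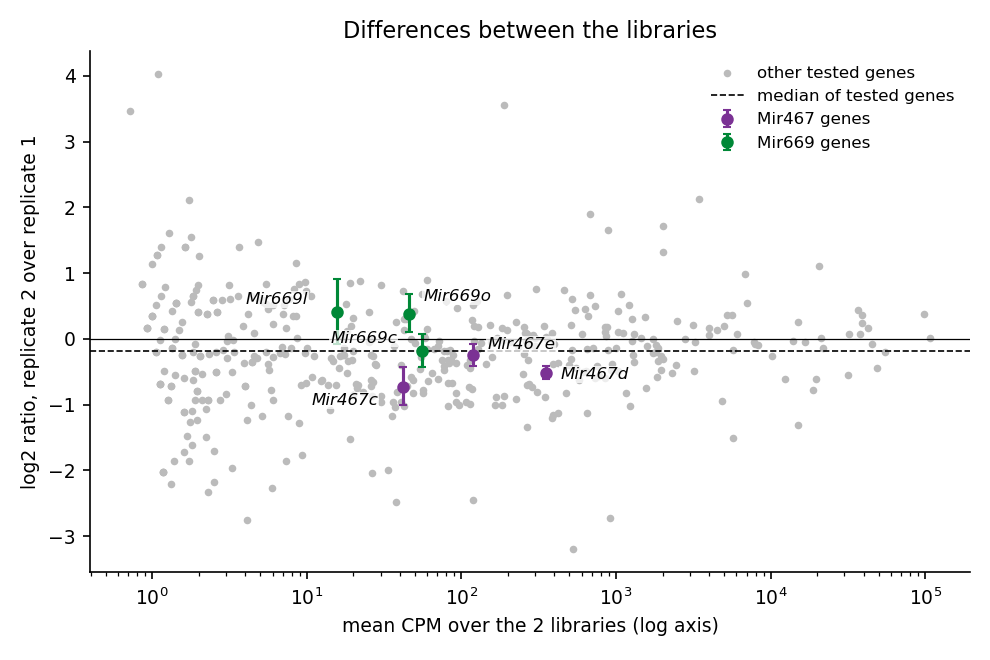
Each point is 1 of 455 tested genes, by mean CPM (log axis) and log2 ratio of replicate 2 over replicate 1; purple and green points are the 6 genes with exact 95% intervals, and the dashed line is the median at -0.18. The miR-467 genes lie below that line and Mir669o and Mir669l above 0, all within the cloud of other genes.

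The median log2 ratio of the 6 genes was -0.21, against -0.18 over all tested genes. Relative to that median, Mir467c stood at -0.54, Mir467d at -0.34, Mir467e at -0.06, Mir669c at -0.0048, Mir669o at 0.57 and Mir669l at 0.58. TMM normalization moved all ratios by 0.14 and the median to -0.04. With it 4 members were again called by an exact binomial test, 2 lower (Mir467c and Mir467d) and 2 higher (Mir669o and Mir669l), against 51.9% of all genes, 27.5% lower and 24.4% higher. Mir467e was no longer called (adjusted p = 0.349).

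With edgeR's exact test and a common dispersion, a biological coefficient of variation of 31.4%, none of the 6 was called. Each had an adjusted p of 1, and 0 of 6 had an unadjusted p under 0.05, the smallest being 0.287 for Mir467c. Of all 455 genes 5 were called, or 1.1%, and 26 had an unadjusted p under 0.05. That dispersion comes from the same 2 libraries, so the test says little on differences of the size seen here, and its p-values do not show that the 6 genes did not differ.

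As a restatement of the same counts, shares were taken of the 6 genes' reads. The miR-467 members held 84.1% of them in replicate 1, with exact 95% bounds of 82.6 and 85.5%, and 77.9% in replicate 2, with bounds of 76.5 and 79.2%. Mir467d alone held 58.5% (56.6 to 60.4%) and 52.4% (50.8 to 54.0%). Mir669o held 5.63% (4.77 to 6.59%) in replicate 1 and 9.43% (8.52 to 10.4%) in replicate 2, and Mir669l 1.91% (1.42 to 2.52%) and 3.26% (2.72 to 3.87%). The intervals of Mir467c, at 7.39% (6.402 to 8.468%) and 5.73% (5.01 to 6.52%), overlapped slightly, and those of Mir467e, at 18.2% and 19.7%, and of Mir669c, at 8.36% and 9.43%, overlapped as well. These shares do not depend on the library totals, and the intervals hold counting error alone.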

How the data were processed

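The authors deposited, per library, raw counts of reads for 2202 miRNA genes in 3 unnamed columns, which from their values hold both strands, 1 strand and the other strand. The build mm10 and the annotation GENCODE M21 are named in the authors' deposited notes. For aligner, counter and trimming, the entry is: not given in the sources used here. Entries that name no gene were left out of totals (unmapped 16.11% and 16.45%, multimapping 31.6% and 33.6%, no gene 5.554% and 4.995% of all reads). The counts are of reads, with no correction for PCR copies made here, and the intervals cover counting error only. A count of 0 was read as up to 3 counts, 0.825 CPM in replicate 1 and 0.433 in replicate 2.

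The strand column was used, with an offset of 0.5 counts in log2 ratios. Members and lists were chosen with earlier results of these data known. Named genes are the 6 members, the 5 others of the intron with the highest counted level and the genes nearest to the leading member in level. Other named genes are markers or comparisons of sequence. Hairpins came from GENCODE M21 transcripts. Tests across all genes were checked on simulated data with counting error alone, so that check does not cover a wider spread between libraries. Alternatives were the both-strand column, TMM and DESeq2 size factors, edgeR's exact test, other filters and offset, leaving out each library and windows of 18 and 22 bases. Software comprised Python 3.11.15 with scipy 1.17.1 and Biopython 1.88, and DESeq2 1.42.0 and edgeR 4.0.16 under R 4.3.3.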

Additional observations from a re-analysis of the deposited data

How the results depend on the processing

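The levels of the 6 genes rest on reads assigned to a single gene. A gene without a read may lie at up to 0.825 CPM in replicate 1 and 0.433 in replicate 2 of uniquely assigned reads. For the 54 genes without a unique window this does not bound their level, since multimapping reads are not counted. As CPM of all reads of a library, in place of miRNA-gene reads, Mir467d stood at 161, Mir467e at 54.3, Mir669c at 25.4, Mir669o at 20.9, Mir467c at 19.2 and Mir669l at 7.18, and together they took 0.0288%. In the both-strand column, whose total is smaller, Mir467e stood at 135 CPM and Mir669c at 63.2 CPM, while the other 4 moved by less than their SD. With 1 library left out, levels ran from 288 to 412 CPM for Mir467d, 108 to 128 for Mir467e, 51.8 to 58.9 for Mir669c, 39.6 to 51.8 for Mir669o, 31.5 to 52.0 for Mir467c and 13.5 to 17.9 for Mir669l, and the joint share from 0.0549 to 0.0704%. Of 42 alternatives for the log2 ratios, 33 kept direction and side of the threshold. Mir467e lost its call with TMM (-0.10) and DESeq2 size factors (-0.056), and Mir669l gained one (0.54 and 0.59). Mir669c, not called, turned to 0.0033 with DESeq2 size factors. With edgeR's exact test, which keeps the ratios of Mir467c (-0.72), Mir467d (-0.52), Mir467e (-0.24) and Mir669o (0.39), 0 members were called. The cause was not tested, beyond the wider spread that test allows. With 1 read in place of 10 in each library, 10 genes of the intron passed in place of 6, and with replicate 2 alone 8 genes reached 10 reads. Stretches of 18 and 22 bases left all 6 genes sharing sequence. Seeds of the 6 genes' own mature strands were not compared.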

Other observations

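Unique sequence and reads did not always go together in the array. Of the 105 genes of the intron without a read, 14 had at least 50% unique windows. Mir466g and Gm22239, picked after their values were seen, had 100% unique windows and 0 reads in both libraries, which allows up to 0.825 CPM in replicate 1 and 0.433 CPM in replicate 2 of uniquely assigned reads. Mir669e, with 95.0% unique windows, had 0.825 and 2.46 CPM, whereas Mir467d, with 37.9%, had the highest counted level of the array. The median share of unique windows was 54.0% in the 6 genes, 58.55% in the 8 genes with fewer reads and 0% in the 105 without any. With all other GENCODE transcripts in the search, an alternative added after the data were seen, these medians were 53.3, 52.4 and 0%.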
